A study of Mus musculus with 12 samples.

Results

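Fibrotic mouse skin at 20 weeks was compared with fibrotic skin at 6 weeks, gene by gene. All libraries of both time points that carried no cell transplant were used, 3 at each time, which makes 6 of the 12 libraries of the series. Of the 23359 genes in the table, 13022 were tested: those with at least 1 FPKM (fragments mapped to a transcript, scaled to its length and to the size of the library) in at least 3 of the 6 libraries, without 12 rows listed at exactly 0 in some libraries and at 10 FPKM or more in every other. The study examined how murine skin fibrosis changes with and without transplanted CD36-high, CD90-positive fibroblasts. The comparison described here sets its untreated tissue late against early.

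The early group was fibrotic tissue of C3H/HeJ mice at 6 weeks, the late group fibrotic tissue of the same strain at 20 weeks, and 3 libraries of normal skin of that strain are given beside them as levels. The whole series compares these groups with a treated one that is not described here. No allele, transgene or agent is named for these 9 libraries. The labels do not say how the fibrosis was produced, from which event the weeks were counted, how old the animals were, or whether the 3 samples of a group came from separate animals. The p-values therefore measure the spread between samples, which may be in part technical. The tissue was macrodissected whole skin, so fewer cells of a type and less RNA per cell cannot be told apart. As a check of the tissue, the basal keratinocyte keratin gene Krt14 lay between 2887 and 5281 FPKM in the 6 libraries, and the collagen gene Col1a1 between 62.8 and 151 FPKM.

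In fibrosis, fibroblasts lay down collagen-rich matrix while immune cells and the overlying epidermis also change. The hair follicle is a cyclic organ. During its growth phase, matrix cells at the base of the follicle, where the Wnt effector LEF1 acts, give rise to the hair shaft and the inner root sheath. The shaft is built from hair keratins cross-linked by keratin-associated proteins (KAPs). CD8 T cells recognise peptides that MHC class I molecules present after cutting by the immunoproteasome and transport by TAP. Interferon gamma, which these T cells release, raises immunoproteasome, TAP and class I genes.

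Promoter sequences of genes from the 2 groups that the results turn on are shown because members of each group moved together. They come from the RefSeq table of build GRCm38.p6, the assembly also called mm10, and end at the base before the annotated start. In the genes that were higher at 20 weeks, capitals mark the core of the interferon-stimulated response element on either strand, which was searched as GAAA, any 2 bases and GAAA.
B2m, chr2:122147537-122147686, plus strand: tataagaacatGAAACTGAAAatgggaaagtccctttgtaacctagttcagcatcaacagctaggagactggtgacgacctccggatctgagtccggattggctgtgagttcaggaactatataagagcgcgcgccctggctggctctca
Igtp, chr11:58199406-58199555, plus strand: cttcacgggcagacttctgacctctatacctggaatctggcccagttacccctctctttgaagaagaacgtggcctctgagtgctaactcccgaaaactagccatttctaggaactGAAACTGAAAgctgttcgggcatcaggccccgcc
Irgm2, chr11:58214827-58214976, plus strand: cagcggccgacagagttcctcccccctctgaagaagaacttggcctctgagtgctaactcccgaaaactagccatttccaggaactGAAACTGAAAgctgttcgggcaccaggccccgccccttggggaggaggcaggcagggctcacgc
The match began 139 bases before the start in B2m, 34 in Igtp and 64 in Irgm2.

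In the hair keratin genes that were lower at 20 weeks, capitals mark CTTTGAA on either strand, the core of the site bound by LEF1 and its relatives.
Krt31, chr11:100050552-100050801, minus strand: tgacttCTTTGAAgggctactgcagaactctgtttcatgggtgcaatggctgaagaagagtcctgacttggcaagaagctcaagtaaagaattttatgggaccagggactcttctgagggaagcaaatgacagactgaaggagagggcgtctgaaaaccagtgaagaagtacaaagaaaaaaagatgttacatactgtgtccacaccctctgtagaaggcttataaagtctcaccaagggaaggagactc
Krt34, chr11:100041555-100041804, minus strand: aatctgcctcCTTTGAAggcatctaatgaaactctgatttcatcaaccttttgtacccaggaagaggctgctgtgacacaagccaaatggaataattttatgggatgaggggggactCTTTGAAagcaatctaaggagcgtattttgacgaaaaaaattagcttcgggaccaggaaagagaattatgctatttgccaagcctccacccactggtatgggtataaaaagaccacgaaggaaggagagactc
The match began 244 bases before the start in Krt31, and the 2 matches in Krt34 began 240 and 133 bases before it.

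The motifs were counted in windows of 300 bases, from 250 before to 50 after the start, for each gene with an entry. The interferon core stood in 5 of the 5 matched genes of the interferon-stimulated list that rose and in 3 of the 7 matched MHC class I list genes that rose, against 3.74% of the 9653 tested genes with an entry. The 5 were Gbp7, Igtp, Irgm2, Tgtp1 and Tgtp2. The 3 were B2m, H2-T22 and H2-T23, while Psmb8, Psmb9, Psmb10 and Tap1 had no match. Tgtp1 and Tgtp2 are near-identical copies and the Igtp and Irgm2 sequences above are alike around the match, so the first 5 are not 5 separate cases. The gamma-activated element, searched as TTC, any 3 bases and GAA, stood in 5 of the 5 and 1 of the 7, against 8.32% of tested genes. Among genes that fell it stood in 8 of the 39 matched KAP genes, 1 of the 7 hair shaft keratins and 1 of 11 of the inner root sheath list. The interferon core stood in 3 of these 39 KAP genes and in 0 of the matched hair shaft keratins and inner root sheath genes. CTTTGAA stood in 5 of the 7 matched hair shaft keratin genes that fell (Krt31, Krt32, Krt33b, Krt34 and Krt39), in 8 of the 39 matched KAP genes that fell and in 2 of 11 of the inner root sheath list, against 4.49% of tested genes. The TATA box, TATAAA on either strand, stood in 32 of those 39 KAP genes and in 9.95% of tested genes. KAP genes are alike in sequence, so theirs may not be separate cases either. A match to the gamma-activated element can hold CTTTGAA. Otherwise none of these letter strings contains another, though matches may overlap at their ends. A match describes letters in the window and is no evidence of binding.

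Each library had between 12658 and 13052 genes at 1 FPKM or more, and its median over tested genes lay between 10.6 and 10.7 FPKM. The labels name a read number aimed for and the files give none obtained, so the depth is unknown and no counting error is given. On the first principal component, with 53.9% of the variance, 6-week replicate 3 (coordinate -6.77) lay nearest to the 20-week libraries, of which replicate 1 (10.3) was the closest to it. Pearson correlations of log2(FPKM + 1) were 0.964 to 0.981 within the 6-week group, 0.972 to 0.986 within the 20-week group and 0.932 to 0.970 between them.

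A gene was called at a Benjamini-Hochberg adjusted p under 0.05 in limma on log2(FPKM + 1), and "rose" and "fell" below refer to called genes at 20 weeks relative to 6 weeks. All fold changes are on this log2(FPKM + 1) scale, which understates changes of low genes. Of the tested genes 541 were called (4.15%), 332 higher (2.55%) and 209 lower (1.60%). With at least a 2-fold change 181 were called (1.39%), 49 higher (0.376%) and 132 lower (1.01%), so that large changes were mostly decreases. The median log2 fold change of all tested genes was 0.02. For 4130 genes (31.7%) the 3 values at 20 weeks did not overlap the 3 at 6 weeks, 18.6% with the later values higher and 13.1% with them lower, and 3458 genes (26.6%) had an unadjusted p under 0.05.

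**Figure D1:**
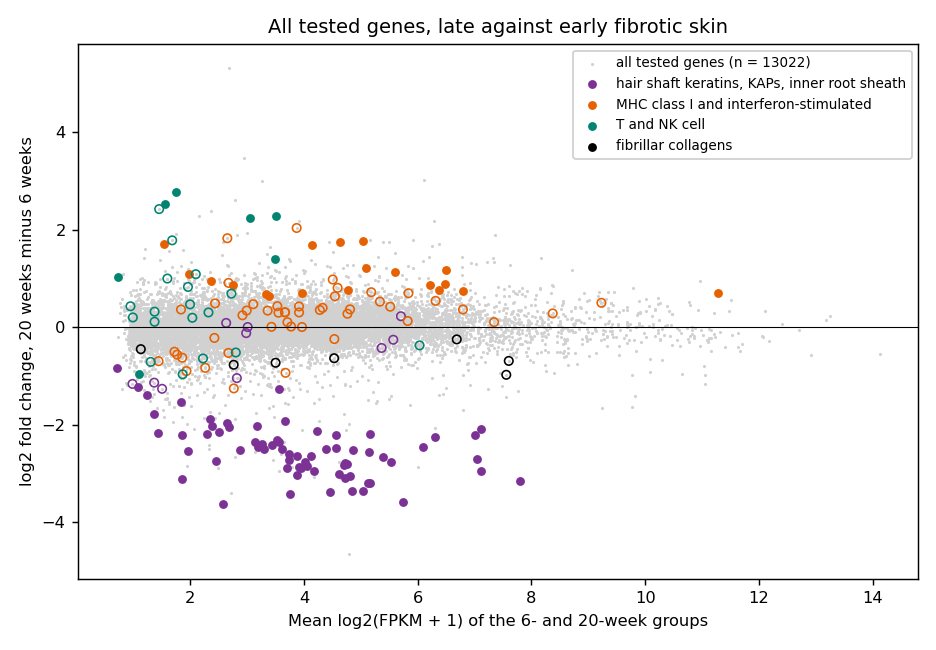
Each point is 1 of 13022 tested genes, with its mean level on the x axis (log2 of FPKM + 1) and the log2 fold change of 20 weeks minus 6 weeks on the y axis; filled coloured points are called list members, open ones are not called. Hair genes (purple) form a band below 0 that reaches -3.63 for Krtap19-1, while called MHC class I and interferon-stimulated genes (orange) lie above 0. Krtap19-1 passed the filter only through the 6-week libraries.

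The number of calls depended on single libraries. It was 15 without 6-week replicate 1, 139 without 6-week replicate 2, 867 without 6-week replicate 3, 886 without 20-week replicate 1, 21 without 20-week replicate 2 and 116 without 20-week replicate 3. The balance of directions moved as well: with 6-week replicate 2 left out 42 genes were higher and 97 lower, without 20-week replicate 3 the numbers were 40 and 76, without 6-week replicate 3 they were 416 and 451, and without 20-week replicate 1 they were 486 and 400. In the smallest sets, without 6-week replicate 1 and without 20-week replicate 2, 6 were higher and 9 lower, and 9 higher and 12 lower. In a fit that also took in the normal and the treated libraries and shared their spread, the count was 2 (Amd1 and Coch). The median SD of log2(FPKM + 1) over tested genes was 0.231 in the treated group. It was 0.145 in normal skin, 0.141 at 6 weeks and 0.146 at 20 weeks. The part of this spread in the count was not tested. Called with all 6 libraries and in each of the 6 fits that left out a library were 13 genes. Of these, Cd8a, Cd8b1, Nkg7, Cxcr6 and Krt80 were higher at 20 weeks, and Coch, Olfm1, Krtap1-4, Krtap4-7, Krtap31-1, Gm11559, Gm11565 and Gm11567 were lower. Among them at least Cd8a and Cd8b1 passed the filter only through the 20-week libraries and Krtap31-1 only through the 6-week ones, so their direction was fixed. Over all tested genes, 78 passed only through the 6-week libraries (27 called) and 39 only through the 20-week ones (12 called).

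**Figure D2:**
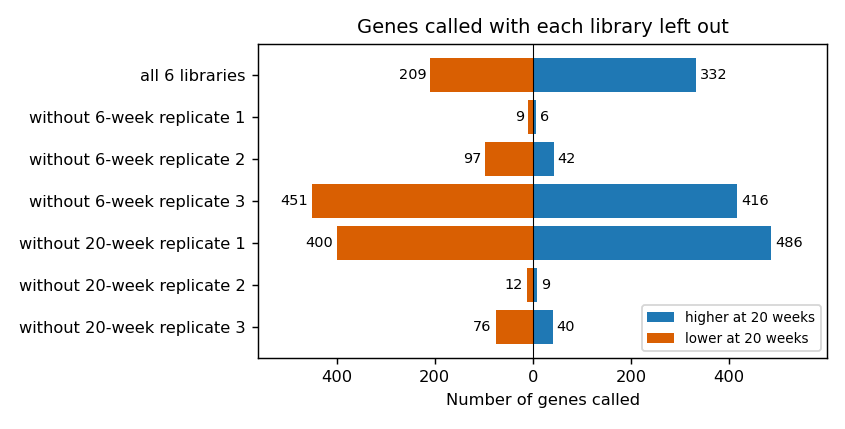
Bars give the number of genes called higher (blue, to the right) and lower (orange, to the left) at 20 weeks with all 6 libraries and with each library left out. The total runs from 15 without 6-week replicate 1 to 886 without 20-week replicate 1.

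Genes of the hair shaft and of the inner root sheath fell. Of 15 hair shaft keratin genes, all tested, 13 fell, with a median log2 fold change of -2.39. The table held 52 KAP genes, of which 46 were tested, and 43 of them fell (median -2.61). Of the 18 tested genes of the inner root sheath list, which also holds regulators of the follicle matrix, 13 fell (median -2.13), and none of these 3 lists had a member that rose. Among all tested genes 1.60% fell.

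Krt33a, an acidic hair keratin gene, stood at 117, 82.8 and 128 FPKM at 6 weeks and at 19.9, 10.98 and 5.60 FPKM at 20 weeks. Krt85, a basic hair keratin gene of the lower shaft, stood at 110.4, 72.2 and 143 FPKM at 6 weeks and at 14.9, 11.9 and 6.55 at 20 weeks. Each of the 3 early libraries lay far above each late one for both genes. Their log2 fold changes were -3.20 ± 0.40 (SE, n = 3 per group, limma adjusted p = 0.0144) and -3.19 ± 0.33 (adjusted p = 0.00935).

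Krt34, whose promoter is shown above, had 53.3, 44.2 and 51.6 FPKM early and 9.28, 4.94 and 3.56 late (-2.95 ± 0.28, SE, adjusted p = 0.00829). Krt31 fell from 48.4, 27.0 and 64.0 to 8.82, 5.25 and 2.94 FPKM. The other called keratins ran from Krt39 (log2 fold change -1.23) and Krt36 (-1.54) to Krt35 (-2.79). The hair keratins that did not pass were Krt40 (-1.16, adjusted p = 0.0569) and Krt84, a keratin gene also known from nail and tongue papillae, which had 6.70, 7.42 and 2.35 FPKM early and 4.59, 4.98 and 6.84 late.

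The lowest fold changes among the named genes belonged to KAP genes. Krtap8-1, a glycine-tyrosine-rich type, was the most abundant of those named, with 748, 612 and 619.7 FPKM at 6 weeks and 141, 58.8 and 47.7 at 20 weeks, which gave -3.14 ± 0.37 (SE, adjusted p = 0.0135). Krtap15 had 171, 143 and 252 FPKM early and 23.9, 13.7 and 8.99 late (-3.58 ± 0.35, adjusted p = 0.00874). In each case the late libraries lay below all early ones, and within the late group replicate 1 was the highest.

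Krtap19-1 had the lowest value of the named genes, -3.63 ± 0.46 (SE, adjusted p = 0.0147), with 11.9, 14.5 and 44.8 FPKM early and under 1 FPKM in every late library. The other 5 KAP genes named by the same rule, Krtap14, Krtap16-1, Krtap16-3, Krtap19-5 and Krtap31-1, had log2 fold changes from -3.43 (Krtap16-1) to -3.10 (Krtap31-1). Among the tested KAP genes 3 were not called: Krtap10-4 (-1.13), Krtap20-2 (-1.26) and Krtap3-2, whose values of 49.1, 50.5 and 53.3 FPKM early and 26.6, 63.3 and 45.4 late overlapped. Of the tested KAP genes 9, among them Krtap19-1 and Krtap31-1, passed the filter on low values only through their 6-week libraries. So did 2 hair shaft keratins, Krt39 and Krt40, and all of these could only differ in this direction. KAP genes are small and alike in sequence, so reads may have been split among copies, and values of single KAP genes are uncertain.

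Among inner root sheath genes, the keratin gene Krt28 had 72.5, 47.9 and 91.8 FPKM at 6 weeks and 11.6, 7.79 and 7.40 at 20 weeks (log2 fold change -2.83 ± 0.26, SE, adjusted p = 0.00824). S100a3, a calcium-binding protein gene of the hair cuticle, stood at 357, 226 and 465 FPKM early and 70.0, 54.2 and 33.5 late (-2.71 ± 0.34, adjusted p = 0.0141). The groups did not overlap in either. Tchh, which encodes the sheath protein trichohyalin, had -2.45, Padi3, the enzyme gene that modifies it, -2.01, and Krt72, a type II sheath keratin gene, -2.49 ± 0.30 (adjusted p = 0.0136).

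Among the regulators in the list, Lef1 and Hoxc13 fell. Lef1 fell from 6.75, 8.90 and 11.01 to 1.36, 1.43 and 2.23 FPKM (-1.88 ± 0.20, SE, adjusted p = 0.00938), and the normal libraries had 2.47, 1.95 and 1.697 FPKM. Hoxc13, a homeobox gene that drives hair keratin transcription, fell from 18.4, 12.9 and 21.9 to 7.24, 6.15 and 6.64 FPKM (-1.26 ± 0.18, adjusted p = 0.0217). Neither gene overlapped between the early and the late libraries. Msx2 (-1.04, adjusted p = 0.0889), Dlx3 (-0.42), Foxn1 (-0.12), Padi1 (0.0056) and Gata3 (0.23) were not called.

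**Figure D3:**
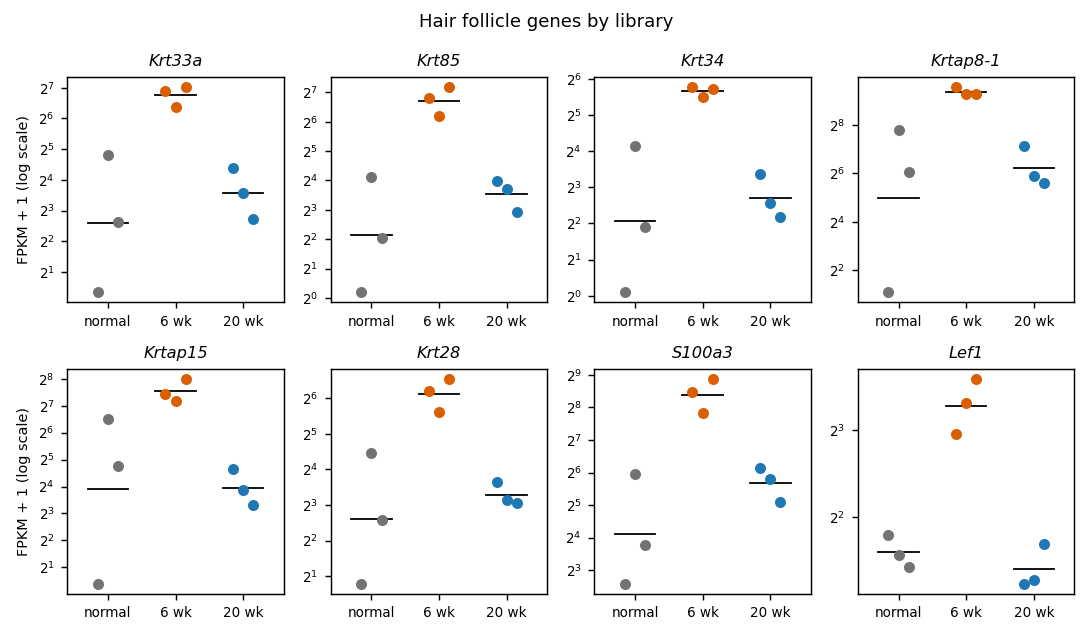
FPKM + 1 on a log axis for 8 hair follicle genes, with 1 point per library in normal skin (grey), 6-week (orange) and 20-week fibrotic skin (blue) and a bar at the mean of log2(FPKM + 1). In every panel the 3 orange points lie above the 3 blue points, and for all panels but Lef1 the normal points are widely spread.

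In normal skin these genes varied widely between libraries. Summed over the hair shaft keratins, the normal libraries had 8.27, 130.5 and 31.3 FPKM, the 6-week libraries 576, 394 and 673, and the 20-week libraries 104, 75.0 and 49.2. The KAP sums were 67.8, 1328 and 419.5 FPKM in normal skin, 3105, 2679 and 3176 at 6 weeks and 655, 352 and 282 at 20 weeks. All 6-week sums thus exceeded every normal and every 20-week sum, while the 20-week sums lay within the normal range. Most hair calls were lost when either of 2 libraries was left out. Without 6-week replicate 1, 0 hair keratins, 3 KAP genes and 1 inner root sheath gene were called, and without 20-week replicate 2 the counts were 0, 6 and 1. Over all tested genes these fits called 15 and 21, against 541 with all 6 libraries. The medians of the 3 hair lists stayed between -2.90 and -1.83 in all 6 fits that left out a library. A fit that added the 3 normal libraries, chosen after seeing the data, called 4, 9 and 2.

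By RefSeq positions, the hair genes lie in a few clusters. The cluster at chr11:99315516-100109487 held 32 tested members of these lists, 30 of which fell, and 9 other tested genes. Of those 9, 8 fell, all of them predicted genes (such as Gm11565, log2 fold change -3.40, and Gm11567, -2.94), and Krt23, a keratin gene of simple and stressed epithelia, rose (0.63). The cluster at chr16:88610709-89571183 held 21 members, 20 of them lower, and 3 of its 4 other tested genes fell (Gm10228, Gm10229 and 1110025L11Rik). The keratin cluster at chr15:101459061-101802360 held 8 members, of which 7 fell, and none of its 5 other tested genes was called. These neighbours were counted after the values were seen. KAP genes were taken by symbol alone, so any member of the family with another symbol counts among the other genes here.

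The other follicle lists are set against 4.15% of all tested genes called. Of 16 tested genes of follicle stem cells and outer root sheath 0 were called (median -0.17), and with each library left out 0 or 1. Krt15, a keratin gene of the follicle bulge, had 251, 189 and 169 FPKM early and 115, 351 and 129 late, against 1564 to 2079 FPKM in normal skin. Among 22 tested signals of the hair cycle 2 rose and 1 fell, but 0 were called without 6-week replicate 1, 6-week replicate 2, 20-week replicate 2 or 20-week replicate 3. The BMP and Wnt modulator gene Sostdc1 rose from 44.0, 42.9 and 44.3 to 66.4, 57.9 and 68.9 FPKM (0.54 ± 0.09, SE, adjusted p = 0.0308), Wnt7b rose by 0.65 and Wnt5a fell by 0.56 on the log2 scale.

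Several genes of cytotoxic T lymphocytes rose, and apart from Krt80 the genes that rose with every library left out in turn (Cd8a, Cd8b1, Nkg7 and Cxcr6) are of this kind. Of 25 tested T and NK cell markers 6 rose and 1 fell (median 0.47), against 2.55% and 1.60% of all tested genes. With no filter on low values the balance was nearly even, with 5 of 31 higher and 4 lower: Ctla4, the regulatory T cell gene Foxp3 and the NK receptor genes Ncr1 and Klrb1c fell in that fit, and the last 3 were not tested otherwise. Cd8a, Cd8b1, Ifng, Gzma and Gzmb passed the filter only through the 20-week libraries and could only differ upwards, and Ctla4 passed only through the 6-week ones. Cd8a, Cd8b1 and Ifng were also among the 5 higher without the filter. Cd8a, which encodes the alpha chain of the CD8 co-receptor, stood at 0.05, 0.410 and 0.431 FPKM at 6 weeks and at 7.97, 6.67 and 8.90 at 20 weeks. Cd8b1, the gene of its partner chain, had 0.103, 0.401 and 0.183 FPKM early and 5.99, 5.47 and 6.85 late. Normal skin was at 0.133 FPKM or below for both, so the late libraries stood apart from all others. The log2 fold changes were 2.78 ± 0.17 and 2.53 ± 0.14 (SE, n = 3 per group, limma adjusted p = 0.00183 each).

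Nkg7, a gene of cytotoxic granules, rose from 2.32, 3.09 and 3.02 to 19.6, 16.2 and 15.4 FPKM (2.24 ± 0.13, SE, adjusted p = 0.00183). Unlike the CD8 genes it was also present in normal skin, at 11.9, 9.52 and 13.4 FPKM. Ccl5, a chemokine gene of effector T cells, rose from 3.78, 4.20 and 4.53 to 39.1, 18.2 and 19.9 FPKM (2.29 ± 0.27, adjusted p = 0.0134). Cxcr6, the gene of a chemokine receptor of tissue-resident T cells, rose from 2.83, 2.82 and 2.42 to 14.0, 11.8 and 12.3 FPKM (1.89 ± 0.11, adjusted p = 0.00183). Normal skin had 3.90, 3.37 and 5.84 FPKM of Cxcr6, above the early libraries.

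Ifng, the interferon gamma gene, had 0.133, 0.168 and 0.188 FPKM early and 1.83, 1.06 and 1.26 late (1.02 ± 0.16, SE, adjusted p = 0.0242). Cd3g, a T cell receptor subunit gene, rose from 4.60, 9.72 and 4.53 to 19.9, 14.8 and 17.5 FPKM (1.40 ± 0.27, adjusted p = 0.0402), while normal skin had 22.6 to 40.8 FPKM. Ctsw, a cathepsin gene of cytotoxic cells, rose by 1.11, with 5.87, 5.82 and 6.91 FPKM in normal skin against 2.09, 4.14 and 4.60 early. The immunoglobulin joining chain gene Igj rose by 1.60, but it passed the filter only through the 20-week libraries and was not called without that filter. Some markers of the same cells did not pass: Gzmb had 0.909, 0.901 and 0.432 FPKM early and 9.73, 4.41 and 2.64 late (1.78, adjusted p = 0.0504), Gzma had 2.42 (adjusted p = 0.067) and Cd3e 1.09 (adjusted p = 0.146).

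Cd4, the co-receptor gene of helper T cells, had 4.12, 6.40 and 2.50 FPKM early and 1.81, 1.56 and 1.48 late, with every late value lower (-0.96, 95% interval -1.58 to -0.35, adjusted p = 0.0827). Ctla4, an inhibitory receptor gene of regulatory and activated T cells, fell from 1.75, 2.05 and 2.24 to 0.364, 0.655 and 0.627 FPKM (-0.96 ± 0.14, SE, adjusted p = 0.0221). The summed T and NK list was 110.0 to 164 FPKM at 6 weeks, 175 to 228 at 20 weeks and 145 to 167 in normal skin. With single libraries left out, 3 to 9 members of the list were called, 3 of them without 6-week replicate 1 or 20-week replicate 2.

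Genes of antigen presentation through MHC class I rose. Of 18 tested genes 10 rose and 0 fell, against 2.55% and 1.60% of all tested genes. All 18 had a fold change above 0, and the median was 0.70. Tap2, a subunit gene of the peptide transporter, had 18.5, 18.9 and 27.8 FPKM at 6 weeks and 48.9, 57.6 and 46.2 at 20 weeks (1.21 ± 0.17, SE, adjusted p = 0.0197). Psmb9, an immunoproteasome subunit gene, had 51.9, 48.2 and 82.7 FPKM early and 153, 144 and 110.2 late (1.17 ± 0.22, adjusted p = 0.0407). B2m, the common light chain gene, rose from 1919, 1815 and 2135 to 3588, 3008 and 2956 FPKM (0.70 ± 0.15, adjusted p = 0.0486).

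In all 3 genes the late libraries exceeded both the early and the normal ones. The other called members were Tap1, Psmb8, Psmb10, the class I transactivator gene Nlrc5 (0.76), and the non-classical class I genes H2-T10, H2-T22 (0.90) and H2-T23. The classical class I genes H2-K1 (0.50, adjusted p = 0.0727) and H2-D1 (0.28, adjusted p = 0.113) did not pass. Class I genes share much sequence, so their separate values are uncertain. Of 10 tested MHC class II genes 0 were called (median 0.11). With single libraries left out, the number of class I genes called was 0 without 6-week replicate 1 or 20-week replicate 2, 1 without 6-week replicate 2 or 20-week replicate 3, 10 without 6-week replicate 3 and 6 without 20-week replicate 1, with medians from 0.64 to 0.75.

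Of 48 interferon-stimulated genes 9 rose and 0 fell (median 0.37), against 2.55% and 1.60% of all tested genes. Among them were the interferon-inducible GTPase genes Igtp, Iigp1, Irgm2, Tgtp1 and Tgtp2 and the guanylate-binding protein genes Gbp4, Gbp6 and Gbp7. Igtp rose from 18.0, 12.6 and 20.7 to 81.6, 63.0 and 41.6 FPKM (1.78 ± 0.27, SE, adjusted p = 0.0233). Iigp1 rose from 14.1, 8.98 and 15.6 to 48.0, 50.9 and 36.5 FPKM (1.75 ± 0.22, adjusted p = 0.0141). Irgm2 rose from 9.64, 5.92 and 12 to 35.1, 32.3 and 25.8 FPKM (1.69 ± 0.24, adjusted p = 0.0194), against 5.60 to 9.83 in normal skin.

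Among the 39 members not called were Isg15, Irf7 and Mx1, picked after their values were seen. Isg15 had 73.1, 33.9 and 33.9 FPKM early and 108, 99.3 and 34.3 late (0.70, 95% interval -0.46 to 1.86). Irf7 had -0.24 (-1.12 to 0.64) and Mx1 -0.53 (-1.30 to 0.25), with overlapping groups in all 3 genes. The interferon gamma-induced chemokine gene Cxcl9 had 4.58, 4.96 and 10.4 FPKM early and 63.0, 25.2 and 14.5 late (2.04, adjusted p = 0.0752). Tgtp1 and Tgtp2 are near-identical copies and their values are uncertain. Tgtp1 also passed the filter only through the 20-week libraries and was not called without it. Leaving out 6-week replicate 1 or 20-week replicate 2 left 0 members of the list called, and the other 4 such fits called between 3 and 11.

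Ubd, which encodes the ubiquitin-like protein FAT10 and responds to interferon gamma, had 1.87, 2.31 and 3.08 FPKM early and 65.6, 16.4 and 16.2 late (3.0 ± 0.51, SE, adjusted p = 0.0302). In the list of cytokines and their receptors 5 of 24 tested genes rose and 0 fell, against 2.55% and 1.60% of all tested genes, but 0 were called without 6-week replicate 1, 6-week replicate 2, 20-week replicate 2 or 20-week replicate 3. Beside Ifng these were receptor genes, Il6ra (0.75), Il22ra1 (0.73), Il20rb (0.72) and Il17rc (0.70).

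**Figure D4:**
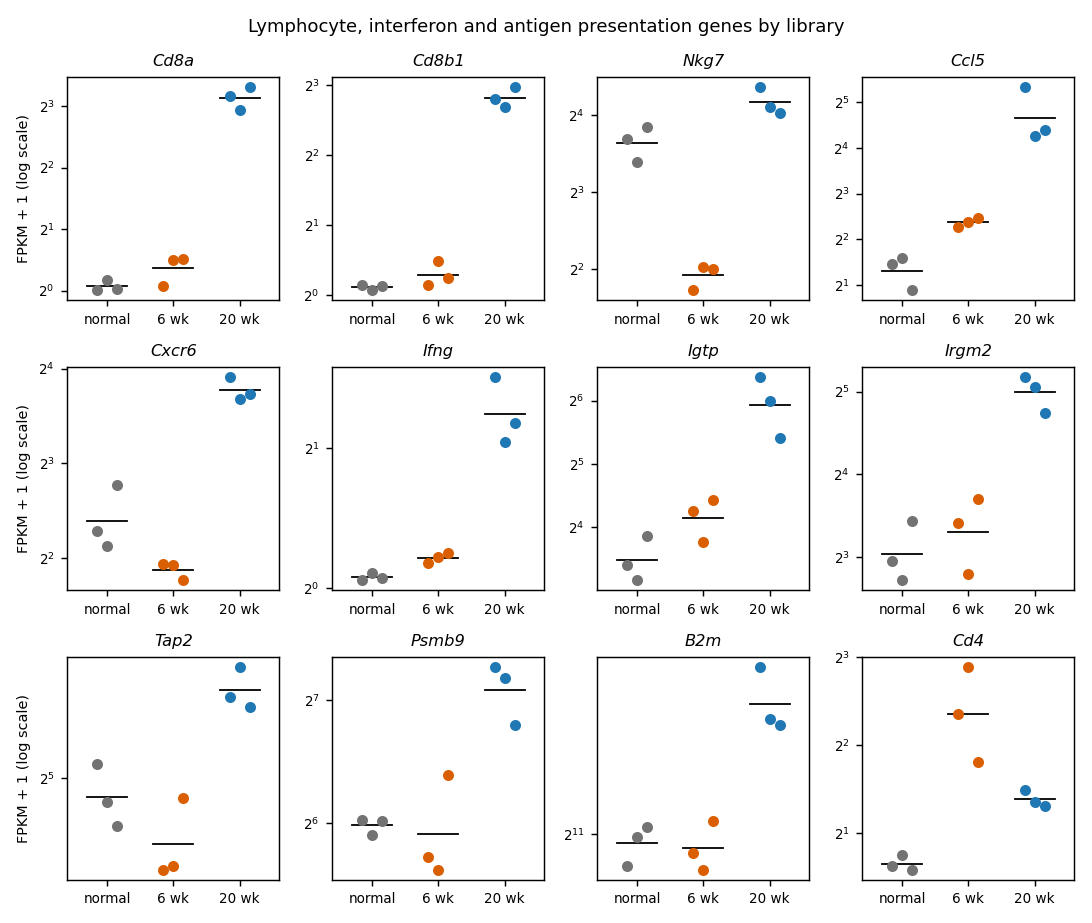
FPKM + 1 on a log axis for 12 genes in normal skin (grey), 6-week (orange) and 20-week fibrotic skin (blue), with 1 point per library and a bar at the mean of log2(FPKM + 1). The blue points lie above the orange ones in every panel but that of Cd4, where they lie below; Nkg7 is high in normal skin as well, Cd8a and Cd8b1 are not.

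The myeloid lists are set against 1.60% of all tested genes lower and 2.55% higher. Of 22 tested macrophage markers 1 fell and 0 rose, although 21 had fold changes below 0 (median -0.52). Aif1, a macrophage activation gene, stood at 27.4, 20.0 and 14.9 FPKM early and 10.6, 8.60 and 7.83 late (-1.09 ± 0.22, SE, adjusted p = 0.0453). Of 41 chemokine list genes Ccl5 and Cxcr6 rose and Ccr2, the receptor gene of inflammatory monocytes, fell from 15.7, 11.2 and 8.17 to 3.11, 4.24 and 3.26 FPKM (-1.45 ± 0.22, adjusted p = 0.0235). In the dendritic and Langerhans cell list 2 of 10 fell, Cd209a (-0.89) and Cd83 (-0.80).

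The myeloid result turned on 6-week replicate 3. The macrophage list summed to 1378, 1009 and 637 FPKM at 6 weeks, 676, 629 and 651 at 20 weeks and 210 to 389 in normal skin, so this replicate lay at the late level. Without it 10 macrophage markers and 11 chemokine list genes fell, and 3 chemokine list genes rose. Il1b, the interleukin 1 beta gene, had 84.9, 75.3 and 6.96 FPKM early and 8.62, 3.17 and 2.33 late, which gave -2.87 (95% interval -5.05 to -0.69, adjusted p = 0.114). S100a8, an alarmin gene of neutrophils and stressed keratinocytes, had 1804, 2346 and 833 FPKM early and 1995, 293 and 205 late, so that 20-week replicate 1 was at the early level.

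In the epidermis, a few late differentiation genes were called. Of 36 tested cornified envelope genes 5 rose and 1 fell (median 0.23), against 2.55% and 1.60% of all tested genes. Alox12e, an epidermal lipoxygenase gene, stood at 28.6, 22.2 and 71.9 FPKM early and 161, 196 and 144 late, near the normal 137 to 211 (2.17 ± 0.40, SE, adjusted p = 0.0373). Lce1g, a late cornified envelope gene, rose from 160.5, 169.6 and 182 to 248.8, 355 and 308 FPKM (0.82 ± 0.14, adjusted p = 0.0341), and Lce1f, Lce1h and Lce1i rose by 0.56 to 0.75. The 6 tested genes of the Lce3 group had fold changes from -1.37 to -0.77 and none was called. Tchhl1, a trichohyalin-like gene, fell (-1.43).

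Krt80, a keratin gene of differentiating epithelia, had 73.3, 71.2 and 65.8 FPKM early and 163, 160.4 and 178 late, against 208 to 269 in normal skin (1.24 ± 0.09, SE, adjusted p = 0.0037). The desmosome gene Dsc1 rose from 213, 256 and 257 to 474, 396 and 462 FPKM (0.88 ± 0.12, adjusted p = 0.0195). Krt2, a keratin gene of the upper epidermis, had 12.2, 50.6 and 19.7 FPKM early and 276, 325 and 83.8 late, with no overlap, but missed the threshold (3.03 ± 0.64, adjusted p = 0.0516). Of the cornified list 0 genes were called without 6-week replicate 1, 6-week replicate 2 or 20-week replicate 2, and 2 to 9 without each of the others.

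Of 23 tested genes of wound-activated keratinocytes 21 had fold changes below 0 (median -0.89). The list gave 0 calls without 6-week replicate 1, 6-week replicate 2, 20-week replicate 2 or 20-week replicate 3. With all 6 libraries 1 of its genes fell, against 1.60% of all tested genes. That gene was BC117090, a stefin-type protease inhibitor gene, with 157, 249.9 and 153 FPKM early and 105, 65.1 and 74.3 late (-1.18 ± 0.24, SE, adjusted p = 0.0485). Krt6b, a keratin gene of activated epidermis, had 2610.1, 4376 and 1808 FPKM early and 2427, 1726 and 965 late (-0.78, 95% interval -1.78 to 0.22). The late values remained far above the 1.02 to 3.11 FPKM of normal skin. Of 34 tested cell cycle genes 0 were called although all 34 had fold changes below 0 (median -0.46), and 8 fell once 20-week replicate 1 was left out. The proliferation marker gene Mki67 had 27.2, 29.5 and 41.4 FPKM early and 31.4, 20.2 and 14.8 late.

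The main collagen and matrix lists gave no calls. Of all tested genes 4.15% were called, so counts of 0 in lists of this size say little. The fibrillar collagens gave 0 of 7 (median -0.69), other collagens 0 of 18 (-0.27), collagen processing and cross-linking genes 0 of 23 (-0.27), small proteoglycans 0 of 9 (-0.13), matrix proteases 0 of 16 (-0.52) and myofibroblast genes 0 of 14 (0.19). In the same order, fold changes were below 0 for 7, 14, 15, 6, 13 and 6 of these genes, against 6204 of all 13022. At an unadjusted limma p under 0.05, which 26.6% of all tested genes met, 3 of the 7 fibrillar collagens and 4 of the 18 other collagens were lower, 4 of the 16 matrix proteases were lower and 1 higher, and 5 of the 14 myofibroblast genes were higher and 1 lower. Col1a1, the main type I collagen gene, had 151, 90.2 and 101 FPKM early and 86.1, 151 and 62.8 late (-0.25, 95% interval -1.04 to 0.54, adjusted p = 0.664). Normal skin had 17.2 to 36.8 FPKM, so all 6 fibrotic libraries lay above it.

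Col3a1, the type III collagen gene, had 389, 235 and 199 FPKM early and 153, 232 and 66.7 late (-0.97, interval -2.07 to 0.12). Fn1, the fibronectin gene, had -0.81 (-2.04 to 0.41), Mmp2, a gelatinase gene, -0.64 (-1.57 to 0.30) and the fibroblast surface gene Thy1, which encodes CD90, -0.37 (-0.93 to 0.19). The macrophage elastase gene Mmp12 had 51.4, 42.9 and 50.9 FPKM early and 34.7, 15.2 and 33.7 late, without overlap (-0.86, interval -1.57 to -0.15, adjusted p = 0.135), and 0.223 to 1.07 FPKM in normal skin. The intervals of Col1a1, Col3a1, Fn1 and Mmp2 hold both a 2-fold decrease and no change, and that of Mmp12 leaves out no change although it missed the adjusted threshold. Without 6-week replicate 3, 1 fibrillar collagen, 3 matrix proteases and 3 dermal fibroblast markers fell.

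The matrix and fibroblast genes that passed were few, and the counts below stand against 4.15% of all tested genes called. Crabp1, a retinoic acid-binding protein gene of dermal fibroblasts, was the single call of 16 fibroblast markers and fell from 58.6, 44.0 and 31.9 to 18.0, 20.4 and 21.0 FPKM (-1.10 ± 0.21, SE, adjusted p = 0.0393). Emilin2, an elastic fibre gene, fell by 1.11 and Cyr61, a matricellular gene, by 0.83 on the log2 scale. In the list of TGF-beta signalling 1 of 20 was called: Itgb8, an integrin gene whose product activates TGF-beta, rose from 1.20, 1.14 and 1.66 to 3.57, 2.98 and 4.66 FPKM (1.01 ± 0.17, adjusted p = 0.0285). Of 13 cathepsins Ctsw rose and Ctse fell (-1.36), which passed the filter only through the 6-week libraries. In the 6 fits that left out a library, Crabp1, Emilin2 and Ctsw were each called in 1, and Itgb8 and Ctse each in 2.

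Coch, which encodes the extracellular protein cochlin, had 20.1, 17.1 and 12.6 FPKM early and 1.35, 1.57 and 2.38 late (-2.66 ± 0.20, SE, adjusted p = 0.0051). Normal skin had 10.9 to 12.6 FPKM, so that the late libraries lay below both other groups. Olfm1, which encodes a secreted glycoprotein of the olfactomedin family, showed the same order of groups at lower contrast, with 21.97, 19.2 and 18.1 FPKM early, 7.45, 8.25 and 6.89 late and 10.1 to 16.8 in normal skin (-1.28 ± 0.11, adjusted p = 0.00712).

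**Figure D5:**
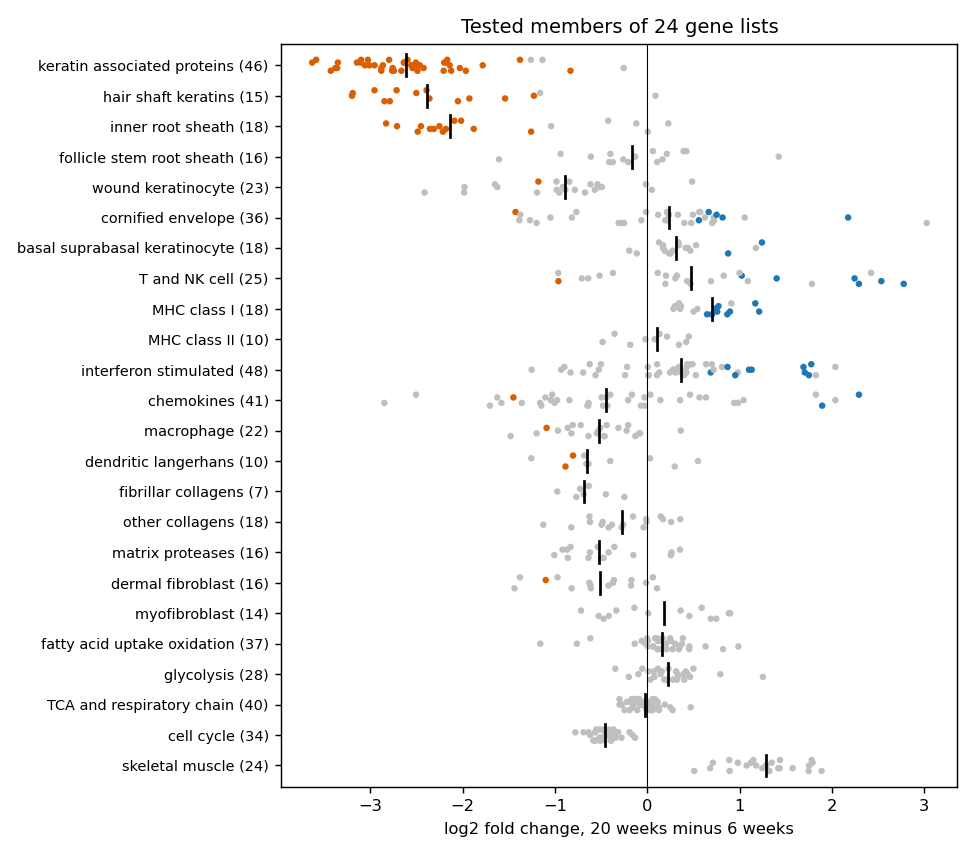
Each point is a tested member of 1 of 24 gene lists (number tested in parentheses), placed by its log2 fold change of 20 weeks minus 6 weeks; blue points rose, orange points fell, grey points were not called, and the black bar is the list median. The 3 hair lists have medians from -2.61 to -2.13, MHC class I has 0.70, and the metabolic lists lie near 0 with no coloured point.

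The metabolic pathways named in the study's title gave no calls. Of 37 tested genes of fatty acid uptake and oxidation 0 were called (median 0.16), of 28 glycolysis genes 0 (median 0.22) and of 40 citric acid cycle and respiratory chain genes 0 (median -0.02). Of all tested genes 4.15% were called, so counts of 0 in lists of this size say little. Fold changes were above 0 for 30 of the 37, 24 of the 28 and 16 of the 40, against 6818 of all 13022. At an unadjusted limma p under 0.05, met by 26.6% of all tested genes, 6 of the 37 were higher and 3 lower. For glycolysis 7 were higher and 1 lower, and for the third list 1 and 1. Cd36, a fatty acid transporter gene, had 29.8, 32.3 and 20.7 FPKM early and 23.2, 33.6 and 67.3 late (0.45, 95% interval -0.42 to 1.33). Cpt1a, the gateway enzyme gene of mitochondrial fatty acid oxidation, had 31.8, 42.3 and 45.8 FPKM early and 40.6, 46.1 and 50.6 late (0.20, interval -0.16 to 0.57). For both genes the groups overlapped.

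Pfkfb3, a glycolysis regulator gene, had 18.2, 17.8 and 14.7 FPKM early and 22.8, 19.1 and 22.6 late, without overlap but not called (0.33, interval 0.05 to 0.61, adjusted p = 0.14). Cav1, the caveolin gene, had 0.17 (-0.30 to 0.64) and the adipocyte gene Adipoq -0.02 (-0.86 to 0.82). In lipid synthesis 3 of 23 genes were called, against 4.15% of all tested genes. Dgat2, of triglyceride synthesis, rose from 90.9, 97.3 and 86.6 to 139, 161 and 172 FPKM (0.77 ± 0.11, SE, adjusted p = 0.0191), the NADPH source gene Me1 rose by 0.62, and the desaturase gene Fads1 fell by 0.68 on the log2 scale. Of 21 cholesterol synthesis genes Dhcr7 rose (0.63). The lipid and cholesterol synthesis lists gave 0 calls without 6-week replicate 1, 6-week replicate 2, 20-week replicate 2 or 20-week replicate 3. Leaving out 20-week replicate 1 gave 4 calls in the fatty acid oxidation list and leaving out 6-week replicate 3 gave 2, and no such fit gave a call in glycolysis.

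Skeletal muscle transcripts varied widely between libraries. All 24 tested muscle genes had fold changes above 0 (median 1.29) and 0 were called. The median was -0.033 without 6-week replicate 2 and 2.19 without 6-week replicate 3. Their list summed to 1894, 108 and 3295 FPKM early and 1145, 2518 and 4995 late, against 245 to 10086 in normal skin. 6-week replicate 2 was the lowest of the 6, and the part of muscle content in other results was not tested.

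Each call was also set against the level in normal skin. Of the 209 genes that fell, the normal mean was nearer to the 20-week mean for 171 and nearer to the 6-week mean for 38. Of the 332 genes that rose, it was nearer to the 20-week mean for 137 and nearer to the 6-week mean for 195. Among those that rose, the normal mean lay below both fibrotic means for 108, as for Cd8a and Igtp, between them for 148, as for Nkg7, and above both for 76, as for Krt80. These counts use the same 6-week and 20-week values that made the calls and are a description, with no test.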

How the data were processed

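Per the labels' protocols, poly-A RNA of macrodissected skin was made into stranded libraries and sequenced from both ends. The authors deposited a table of FPKM values, with 1 column per library. Per the submitters' processing notes, the build was mm10 and the tools included Cufflinks 2.2.1, TopHat2 2.0.13 and cutadapt 1.7.1. Settings and annotation were not given in the sources used here. Which library was in which sequencing pool is not given either, so no batch could be examined.

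Values were analysed as log2(FPKM + 1) in limma 3.58.1 (R 4.3.3), with a mean for each of the 2 groups, an intensity trend, 2-sided tests and Benjamini-Hochberg adjustment over 13022 genes. FPKM are not counts, so no count test was run. An exact test of 3 against 3 cannot give a p below 0.10. On simulated data the fit recovered 83% of 200 genes changed 2-fold (12 false calls) and 99.5% of those changed 4-fold (13 false calls). The simulated noise was normal and independent between libraries, with spreads taken from the same fit and no outlying library. These shares therefore check the code and do not give the share of true changes found in the real libraries. Of the 12 rows left out for zeros 9 were short RNAs.

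The 53 gene lists, the comparison and the genes always given were chosen with earlier results of these data known. Named genes were up to 3 called genes per list with a 2-fold change and no overlap, from the lists with most calls until 30 were named, the 10 highest and 10 lowest called genes with a mean of at least 5 FPKM in the higher group, and 14 genes of interest; any other gene was picked after its values were seen. Of the tested genes 12158 matched a RefSeq symbol. Alternatives were another pseudocount, filters, scalings, sets of libraries, a replicate block and leaving out each library.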

Additional observations from a re-analysis of the deposited data

How the results depend on the processing

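The count of 541 called genes (332 higher, 209 lower) changed with several choices. It was 287 without a filter on low values, 292 after removing the muscle, hair and cornified lists and rescaling the rest, 2 with all 12 libraries in 1 fit, 181 with a 2-fold change required and 15 to 886 with each library left out in turn. A fit with the replicate number as a block gave 143 calls, 46 higher and 97 lower. Whether the numbers pair the libraries is not known. Deviations from the group mean correlated at -0.03, -0.06 and 0.37 for same-numbered libraries and between -0.29 and 0.31 for the others. These values cannot decide it, because deviations within a group depend on each other. The count stayed within 1.5 times for a pseudocount of 0.1 (543), a mean of at least 5 FPKM (512), scaling by the median of ratios (511), no intensity trend (454), rows with zeros kept (531) and, added after seeing the data, a fit of the 9 normal and untreated fibrotic libraries (667, of which 403 were shared). The cause of these differences was not tested. Of the 53 named genes 41 were called, and 8 of them passed in each leave-one-out fit. Without 6-week replicate 1, 33 lost their call, and without 20-week replicate 2, 31 did. Signs changed for uncalled genes alone: Adipoq was 0.0068 after rescaling and ran from -0.37 to 0.25 with each library left out (0.17 and 0.13 without 6-week replicates 1 and 2), Cav1 from -0.064 (without 6-week replicate 3) to 0.33, and Col1a1 from -0.59 to 0.036 (without 20-week replicate 3). The unknown depth limits what can be said of genes near 1 FPKM.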

Other observations

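Several called genes outside the lists, chosen after their values were seen, belong to myeloid receptors. Clec4n, which encodes the fungal lectin receptor dectin-2, fell from 49.3, 32.9 and 29.7 to 12.8, 7.07 and 7.64 FPKM (log2 fold change -1.92 ± 0.26, SE, limma adjusted p = 0.0176). Fcgr2b, the inhibitory IgG receptor gene, fell from 73.9, 59.9 and 43.5 to 22.6, 20.0 and 17.5 FPKM (-1.49 ± 0.20, adjusted p = 0.0161). Fcer1g, the signalling chain gene of Fc receptors, fell by 1.40 on the log2 scale. In each the 3 late values lay below the 3 early ones. Hair-related genes outside the lists also fell, among them Gprc5d, a receptor gene of hard keratinizing tissue, from 61.8, 40.2 and 53.4 to 9.07, 4.70 and 3.22 FPKM, and Dsg4, the hair shaft desmoglein gene, from 6.25, 4.24 and 7.38 to 1.28, 0.819 and 0.680 FPKM.

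Skint2, a member of a gene family of epidermal gamma delta T cell selection, rose from 4.53, 4.86 and 5.78 to 16.6, 13.4 and 18.9 FPKM (1.51 ± 0.15, SE, adjusted p = 0.00874), near the 16.4 to 24.5 FPKM of normal skin. Rora, a nuclear receptor gene, rose from 20.5, 25.1 and 24.9 to 71.2, 48.1 and 55.3 FPKM (1.26 ± 0.16, adjusted p = 0.0147), above the 17.0 to 22.1 FPKM of normal skin. Fam115c rose from 3.29, 3.24 and 2.78 to 21.1, 13.1 and 11.1 FPKM (1.92 ± 0.22, adjusted p = 0.0124), with 13.2 to 14.2 FPKM in normal skin. Enpp2, the autotaxin gene, fell from 16.9, 14.1 and 12.5 to 6.09, 5.78 and 5.73 FPKM (-1.16 ± 0.12, adjusted p = 0.00938).

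The highest fold change of all belonged to Amd1, the adenosylmethionine decarboxylase gene of polyamine synthesis. It was listed at 0.0137, 0.0286 and 0.0221 FPKM at 6 weeks and 66.3, 17.6 and 52.0 at 20 weeks, with 9.71 to 19.2 in normal skin (5.31 ± 0.44, SE, adjusted p = 0.00621). Amd1 passed the filter only through the 20-week libraries and could only differ upwards, though it was also called without the filter. A near-identical copy, Amd2, exists, so reads may have been assigned to either and the value is uncertain. The pseudogene row Oaz1-ps, named for the polyamine regulator antizyme, had 3.21, 0.000349 and 1.99 FPKM early and 16.3, 27.2 and 33.6 late and is uncertain for the same reason.

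Of the rows left out because of zeros, 3 were abundant epidermal genes. Krt1 was listed at 12604, 16674 and 14265 FPKM at 6 weeks and Hrnr, the hornerin gene, at 284, 432 and 346, and both were listed at 0 in all 3 late libraries. Krt10, the partner keratin gene of Krt1, was listed at 10308, 15228 and 12598 FPKM early and at 16040 FPKM in 20-week replicate 1, but at 0 in replicates 2 and 3. These libraries held other epidermal transcripts at high levels (Krt14 at 4763, 4786 and 2887 FPKM), so the rows are given only as listed and without a fold.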
